A study of Mus musculus with 2 samples.

Results

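The heat shock protein and DNAJ genes are the molecular chaperones of the HSP90, HSP70 with HSP110, mitochondrial chaperonin and small heat shock protein classes, together with the J-domain cochaperones. They were chosen by gene symbol (Hspa, Hspb, Hspd, Hspe, Hsph, Hsp90, Dnaja, Dnajb and Dnajc genes with a protein-coding transcript). The rule gave 72 of 55536 annotated genes, all among the 22028 protein-coding genes, and used no measured value. Their RNA was measured in macrophages, the phagocytes of the innate immune system, cultured from bone marrow of the C57BL/6J mouse strain. The cells had received lipid A, the TLR4-activating anchor of bacterial lipopolysaccharide, at 100 ng/ml for 12 h, then a washout of 12 h and a second dose of 100 ng/ml for 75 min. RNA of the chromatin fraction, freed of ribosomal RNA, was sequenced in 2 libraries of this 1 condition, from 250 ng (replicate 1) and 500 ng (replicate 2) of RNA. No genetic change is given in the labels, sex and age were not collected, and both libraries carry the same donor entry. Whether they came from separate cultures is not spelled out. With 1 group there is no contrast of conditions and no test. Each value is a level after the second dose, and errors are SDs between the libraries (n = 2).

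HSP70 proteins bind unfolded stretches of other proteins and release them in a cycle driven by ATP. J-domain proteins bring clients to HSP70 and start ATP hydrolysis, and HSP110 proteins act as nucleotide exchange factors that reset the cycle. HSP90 takes over clients close to their native state, among them kinases and receptors, and small heat shock proteins hold unfolded proteins without ATP. In macrophages the HSP90 of the endoplasmic reticulum, Hsp90b1 (GRP94), is known as the chaperone that folds most Toll-like receptors and integrins. The transcription factor HSF1 switches on part of the set when proteins unfold in the cytosol, and the unfolded protein response switches on the members of the endoplasmic reticulum.

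Depth was 18445009 expected counts in the first library and 17686824 in the second, and annotated genes took 18388793 and 17640464 of these. The members held 0.170% of all counts on annotated genes in replicate 1 and 0.169% in replicate 2. All 10 macrophage markers examined reached 1 TPM (TPM is a level per transcript length, scaled to the same sum in each library) in both libraries, with summed levels of 1281 and 913 TPM. None of 22 markers of 6 other cell types did, and 13 of them had no count in either library. Their summed levels were 0.50 and 2.11 TPM, and the highest single value was 0.53 TPM. Single macrophage markers differed between the libraries. Adgre1 had 16807 and 6321 counts and Itgam 2190 and 637. Only Cd14 (871 and 1284) and Msr1 (11895 and 13450) had more counts in replicate 2.

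Most of the chaperone genes had RNA on chromatin, at very unequal levels. At least 1 TPM in both libraries was reached by 49 of the 72 members, or 68.1%, against 40.1% of all protein-coding genes. At least 10 TPM in both was reached by 21 members (29.2%), against 17.9% of protein-coding genes. The median member stood at 2.675 ± 0.099 TPM (SD between the medians of the libraries, n = 2). By a second program, which assigned the reads without an alignment, that median was 4.87 TPM, and it was 9.97 TPM when the levels were rescaled over protein-coding genes alone. When genes averaging under 1 TPM were left out, the median was 8.50 TPM for members and 8.505 TPM for protein-coding genes, so the expressed members were not high as a set. The 5 highest members held 43.8 ± 1.67% of the members' summed TPM, the 10 highest 67.0 ± 0.512%, and the 25 highest 92.1 ± 0.272%.

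**Figure D1:**
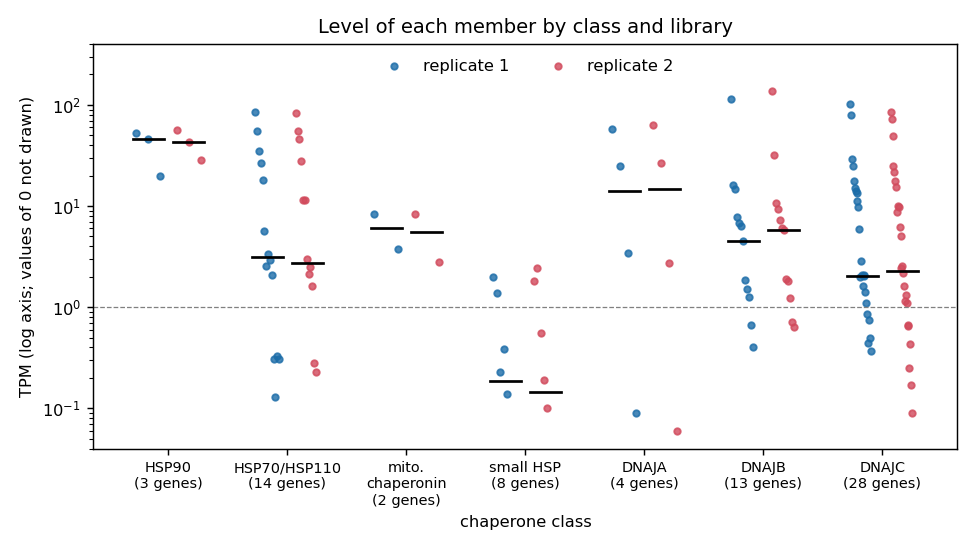
TPM of each member (log axis) in replicate 1 (blue) and replicate 2 (red), by chaperone class, with black bars at the class median of each library and a dashed line at 1 TPM. All 3 HSP90 genes stand above 10 TPM in both libraries, while no small heat shock protein does, and the other classes each spread over more than an order of magnitude apart from the 2 chaperonin genes; values of 0 are not drawn and enter the medians.

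The plot of levels by class shows how the members divide. All 3 HSP90 genes passed 10 TPM in both libraries, with a class median of 44.9 ± 2.06 TPM. In the HSP70 and HSP110 class 10 of 14 genes passed 1 TPM and 5 passed 10 TPM, around a median of 2.76 ± 0.297 TPM. The class A J proteins had 3 of 4 genes above 1 TPM (median 14.4 ± 0.453 TPM). Class B had 10 of 13 (5.12 ± 0.870 TPM), and class C had 19 of 28 (2.11 ± 0.187 TPM). Both chaperonin genes passed 1 TPM and neither passed 10 TPM (5.80 ± 0.322 TPM). Only 2 of 8 small heat shock protein genes reached 1 TPM, and their median was 0.205 ± 0.0283 TPM. By the alignment-free program the HSP70 and HSP110 median was 7.09 TPM, that of class A 27.9 TPM, that of class C 4.12 TPM, that of the chaperonin genes 11.4 TPM and that of the small heat shock proteins 0.346 TPM.

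Among the HSP70 genes, the constitutive cytosolic form Hspa8 stood at 84.9 and 82.9 TPM (replicates 1 and 2, in this order throughout). Hspa9 (mortalin), the HSP70 of mitochondria, was at 55.2 and 54.9 TPM. Hspa5 (BiP), the HSP70 of the endoplasmic reticulum, was at 35.0 and 45.5 TPM. The order Hspa8, Hspa9, Hspa5 held in each library, and these 3 levels did not overlap. By the alignment-free program Hspa9, at 65.0 and 62.2 TPM, was instead just above Hspa8, at 61.4 and 60.9 TPM. Hspa4, an HSP110 protein, was at 26.8 and 27.6 TPM, and Hspa14, which works at the ribosome, at 17.96 and 11.53 TPM. The other HSP110 genes were lower: Hspa4l was at 5.64 and 11.5 TPM, and Hsph1 at 3.37 and 2.15 TPM. The higher value of Hspa4l (11.52 TPM) and the lower value of Hspa14 (11.53 TPM) nearly met. Gm45902, a gene within Hspa14 on the same strand with 333 and 264 counts, shares 7.91% of the exonic bases of Hspa14.

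The heat-inducible HSP70 genes were low. Hspa1b, the higher of the near-identical pair on chromosome 17, was at 2.94 and 2.49 TPM from 128 and 98.8 expected counts. Its neighbour Hspa1a was at 2.06 and 1.61 TPM from 95.7 and 68.0 counts. The split of reads between these copies was estimated by the program, with a posterior SD of 5.29 and 4.96 counts for Hspa1b, and is uncertain. The sum of both does not depend on that split and came to 5.0 and 4.1 TPM in replicates 1 and 2, far below Hspa8. A list of 5 classical heat-inducible genes, drawn up after their values were known, held this pair, Hsph1, Dnajb1 and Hspb1. Its median was 1.84 ± 0.318 TPM, its members lay between 0.290 and 2.76 TPM, and its summed level was 10.02 and 7.66 TPM. Hsp90aa1, also an inducible form, was not on this list and was higher, at 19.9 and 28.8 TPM. Dnajb1, the J protein that pairs with inducible HSP70, was at 1.26 and 1.22 TPM from 59 and 52 counts. Hspb1 (HSP25) had 4.28 and 2 counts. Cells without lipid A or without the second dose were not analysed here, so no change of these genes can be read from the levels.

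The HSP90 genes were all among the 25 highest members. The constitutive cytosolic form Hsp90ab1 was at 52.5 and 56.3 TPM, and Hsp90b1 of the endoplasmic reticulum at 46.4 and 43.4 TPM. The inducible cytosolic form Hsp90aa1 was lower, at 19.9 and 28.8 TPM. In both libraries Hsp90ab1 was the highest of these and Hsp90aa1 the lowest. Of the exonic bases of Hsp90b1, 10.3% are shared with an opposite-strand pseudogene that had 44.4 and 45.0 counts. Without a stated strand setting, reads of such pairs cannot be told apart.

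The highest level of any member was that of the class B J protein Dnajb6, known for holding back the aggregation of polyglutamine proteins, at 115 and 139 TPM from 2229 and 2500 counts. Dnajc7, which carries TPR repeats and binds both HSP70 and HSP90, followed at 101 and 84.1 TPM. Dnajc13, a J protein of endosomes, was at 78.9 and 72.0 TPM. It had the most counts of any member, 5321 and 4027. Dnaja1 was at 58.1 and 63.9 TPM and Dnaja2 at 24.6 and 26.7 TPM; both are class A J proteins that work with cytosolic HSP70. The ranges of Dnajc7 and Hspa8 overlapped, as did those of Hspa9 and Hsp90ab1, whereas Dnajb6 was above every other member in both libraries.

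**Figure D2:**
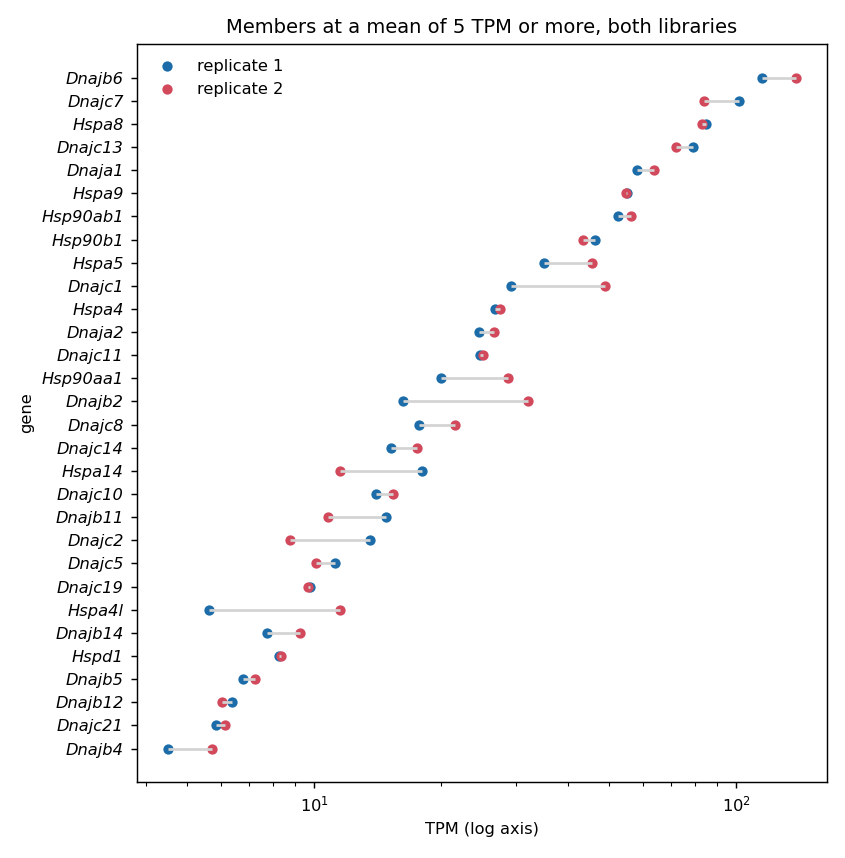
TPM (log axis) in replicate 1 (blue) and replicate 2 (red) of the 30 members with a mean of 5 TPM or more, ordered by mean, with a grey line joining each pair. Dnajb6 leads with 115 and 139 TPM, and neighbours in the order often overlap in their 2 values.

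Below these came J proteins with set places in the cell. Dnajc1 of the endoplasmic reticulum membrane was at 29.3 and 48.9 TPM, and Dnajc11, a mitochondrial membrane protein, at 24.7 and 25.1 TPM. Dnajb2, which binds ubiquitin, was at 16.2 and 32.2 TPM. The spliceosome-associated Dnajc8 was at 17.7 and 21.6 TPM. Dnajc14 was at 15.2 and 17.5 TPM, and 16.99% of its exonic bases are shared with the opposite-strand gene Ormdl2. Dnajc10 (ERdj5), a disulfide reductase, was at 14.0 and 15.3 TPM. Its partner compartment member Dnajb11 (ERdj3) was at 14.8 and 10.8 TPM. The ribosome-associated Dnajc2 was at 13.5 and 8.75 TPM, and Dnajc5 (cysteine string protein), a chaperone of secretory vesicles, at 11.2 and 10.1 TPM. Dnajc19 of the mitochondrial import motor was at 9.76 and 9.68 TPM. Dnajb14 was at 7.74 and 9.26 TPM. Most of these neighbours overlapped in range, so their order is a description of the means.

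Grouped by compartment, in lists also drawn up after the values were known, the 10 members of the endoplasmic reticulum had a median of 10.6 ± 0.626 TPM and 9 of them passed 1 TPM. The exception among these 10 was Dnajb9 (ERdj4), at 0.400 and 0.640 TPM. The others listed were Hsp90b1, Hspa5, Hspa13, Dnajb11, Dnajb12, Dnajb14, Dnajc1, Dnajc3 and Dnajc10. Another list of this compartment could also hold Dnajc14, Dnajc16, Dnajc18 and Dnajc25. Of these only Dnajc18, at 0.740 and 0.250 TPM, was below 1 TPM. Dnajc3, an inhibitor of the stress kinase PERK, was at 2.08 and 2.56 TPM. The 7 mitochondrial members had a median of 8.30 ± 0.0495 TPM. Hspd1 (HSP60) was at 8.26 and 8.33 TPM and its partner Hspe1 (HSP10) at 3.79 and 2.81 TPM. The order of this pair turned with the program, since the alignment-free levels were 12.8 and 15.2 TPM for Hspe1 and 9.34 and 8.40 TPM for Hspd1.

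The sequences before the start sites are shown because the highest member and several members of both compartments carry motifs named for the heat shock and endoplasmic reticulum stress responses. Promoters of 250 bases before to 50 bases after the start came from RefSeq (GRCm38.p6) and matched 58 of the 72 members, with 75 promoters. The 14 members without an entry, among them Hspa8, Hspa9, Hsp90aa1 and Hsp90ab1, could not be searched. A heat shock element of 3 units was searched as GAANNTTCNNGAA and its reverse TTCNNGAANNTTC. It occurred in 198 of 32851 promoters (0.603%) and in 6 of the 75 of the members, belonging to Dnajb6, Hspd1, Hspe1 and Hsph1. The heat-inducible Hspa1a, Hspa1b, Dnajb1 and Hspb1 had entries but no match to this exact string. Relative to the RefSeq starts, both matches of Hsph1 lie after the start, and those of Dnajb6, Hspd1 and Hspe1 before it. In the annotation used for the levels, the matches of Dnajb6 and Hspd1 instead lie inside their genes, and those of Hspe1 inside Hspd1. Hspd1 and Hspe1 lie head to head on chromosome 1 and share 1 stretch, read here from either strand. Capitals mark the match.
Dnajb6 (chr5:29735844-29735872, plus strand): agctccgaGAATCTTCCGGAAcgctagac
Hspe1 (chr1:55088056-55088084, plus strand): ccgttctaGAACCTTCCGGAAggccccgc
Hspd1 (chr1:55088051-55088079, minus strand): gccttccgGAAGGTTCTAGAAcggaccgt
The match in Dnajb6 lay 46 to 34 bases before 1 RefSeq start and 127 to 115 before another. The endoplasmic reticulum stress element, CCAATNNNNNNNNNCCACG or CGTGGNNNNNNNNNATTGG, occurred in 39 of the 32851 promoters (0.119%). It was found in 3 of the 75, those of Hspa5, Hsp90b1 and Dnajc3. All of its matches lie before the RefSeq starts, but that of Hspa5 is inside the gene as annotated for the levels. Capitals again mark the match.
Hspa5 (chr2:34772020-34772048, plus strand): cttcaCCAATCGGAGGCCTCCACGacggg
Hsp90b1 (chr10:86705618-86705676, minus strand): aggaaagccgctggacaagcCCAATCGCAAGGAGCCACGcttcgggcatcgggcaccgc
Dnajc3 (chr14:118937807-118937865, plus strand): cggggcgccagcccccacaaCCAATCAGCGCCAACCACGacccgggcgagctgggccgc
Within the group that carries this element the levels differed widely, from 2.08 and 2.56 TPM for Dnajc3 to 46.4 and 43.4 TPM for Hsp90b1. The heat shock element group spread as widely, from Hsph1 to Dnajb6. A match is a run of letters and says nothing of binding in these cells.

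At the low end, 7 of the 72 members (9.72%) had no count in either library, against 34.6% of all protein-coding genes. They were Hspb2, Hspb3 and Hspb8 of the small heat shock proteins, Dnajb8, Dnajc5g, Dnajc6 and Dnajc22. Hspb2 and Hspb3 are known from muscle and Dnajb8 and Dnajc5g from testis. Dnajc6 (auxilin) is the neuronal partner of HSP70 in uncoating clathrin vesicles. Gak, the auxilin of other tissues and no member, was at 68.7 and 62.8 TPM. With 0 counts observed, a true level of up to 3 counts is possible, which is 1.63e-05% of replicate 1 and 1.70e-05% of replicate 2 (counting error only). The alignment-free program gave 1 count of Dnajc6 in each library and 2 and 0 counts of Dnajb8. Another 3 members had counts in 1 library alone. Hspa1l had 12.7 and 0 counts, Hspa12a 4 and 0, and Dnajc5b 0 and 1. The lowest members detected in both libraries included Dnaja4 (0.0900 and 0.0600 TPM) and Hspa12b (0.130 and 0.230 TPM). Hspb7 was at 0.14 and 0.10 TPM. Among the small heat shock proteins, Hspb6 was highest by mean in the alignment-based table, with 1.98 and 1.83 TPM, next to Hspb9 with 1.37 and 2.42 TPM from 11 and 17 counts. By the alignment-free program Hspb11, placed in this class by its symbol alone, was highest, at 4.36 and 6.54 TPM. Isoforms annotated as processed transcripts, not coding ones, held 96.2% of that level.

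The members' levels were much the same in both libraries. In 62 members with counts in each, log10 TPM correlated across genes with Pearson's r = 0.98 and Spearman's rho = 0.981. These genes share the libraries and are not replicates. For 55 members with at least 10 counts in each library, the log2 ratio of replicate 2 over replicate 1 was taken on counts scaled by TMM (edgeR). Its median was 0.05 (-0.05 by the alignment-free counts), with 28 members higher and 27 lower, and the median over 10348 protein-coding genes was -0.03. Over 2-fold ratios were seen in 2 of 55 members (3.64%), against 6.5% of those genes. They were Dnajb2 and Dnajc18. The number was 1 with the size factors of DESeq2 or with a minimum of 100 counts, and 0 by the alignment-free counts.

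Dnajb2 had 248 and 458 counts, or 1.02 on the log2 scale with a counting SE of 0.11. Hspa4l came close, with 308 and 560 counts (1.00, SE 0.10). Hsp90aa1 had 504 and 855 counts (0.90, SE 0.08) and Dnajc1 had 1357 and 2211 (0.84, SE 0.05). These 4 genes stood apart from the other well-covered members, as Hspa5 (0.38) and Dnajc8 (0.31) came next. In the other direction, Dnajc2 had 549 and 296 counts (-0.76, SE 0.10). Next came Hspa14 (-0.54), Dnajb11 (-0.47), Dnajc7 (-0.43), Dnajc16 (-0.34, from 160 and 115 counts) and Dnajc13 (-0.27). Dnajc18 had 43 and 19 counts (-1.05). The ratios of Dnajb2, Hspa4l, Hsp90aa1, Dnajc1 and Dnajc2 were each several times their counting SE. The libraries differ in input RNA, and its part in these ratios was not tested. Of 35 members averaging 100 counts or more, 29 had a log2 ratio within 0.5 of 0 and 22 were higher in replicate 2. The same shares were not taken over protein-coding genes at 100 counts, so neither count is read as a trait of the members. None of the 35 had a posterior SD above 10% of its count.

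**Figure D3:**
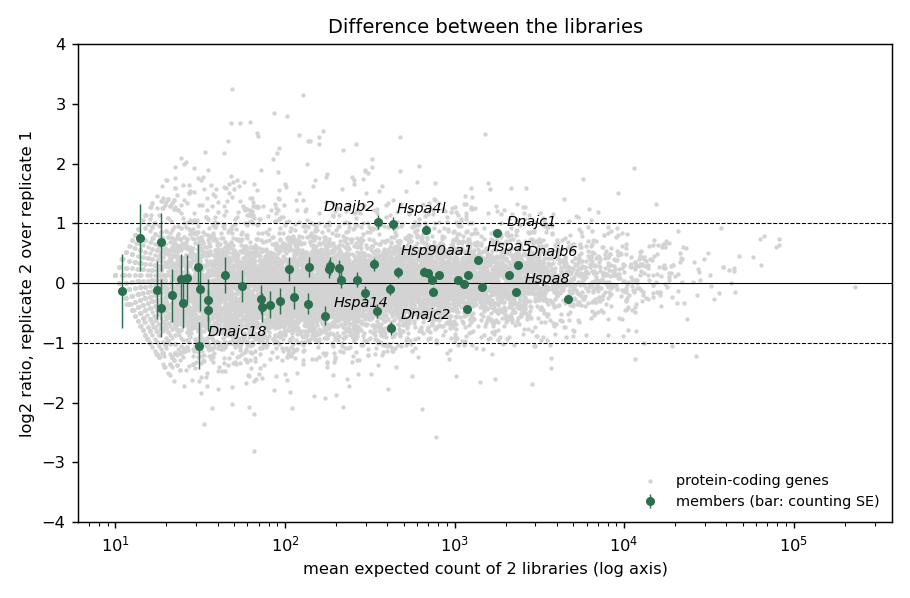
Log2 ratio of replicate 2 over replicate 1 (TMM-scaled counts) against the mean expected count (log axis), for 10348 protein-coding genes (grey) and 55 members (green, bars are the counting SE), with dashed lines at 2-fold. Most well-covered members lie near 0, and Dnajb2 (1.02), Hspa4l (1.00), Hsp90aa1 (0.90) and Dnajc1 (0.84) lie above.

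By compartment, 7 of the 10 listed members of the endoplasmic reticulum were higher in replicate 2. This count depends on the list. Of the genes named above as left out, Dnajc14 and Dnajc25 were higher there, and Dnajc16 and Dnajc18 lower. Among the 10 listed, Dnajc1 and Hspa5 had the highest ratios at a mean of 100 counts or more, and Dnajb11 the lowest. Dnajb9, with 15 and 22 counts, had a ratio of 0.69. Of class B J proteins 10 of 12 were higher in replicate 2, and of class C 8 of 22 were. Over all protein-coding genes at the same minimum, 4905 of 10348 (47.4%) were higher there. None of the 4 genes of the heat-inducible list with enough counts was higher there, with ratios of -0.36 to -0.05 and counting SEs of 0.19 to 0.27. The inducible Hsp90aa1, which that list leaves out, was higher there (0.90). All these counts of members are over 2 libraries of 1 condition and show the spread between them.

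The members' chromatin RNA was split over several isoform classes, with a coding share near that of all protein-coding genes. Over the 49 members with a mean of at least 1 TPM, protein-coding isoforms took 48.0 ± 0.112% of the TPM and retained-intron isoforms 31.3 ± 0.332%. Isoforms annotated as processed transcripts took 18.8 ± 0.273%, and those subject to nonsense-mediated decay 1.82 ± 0.0531%. Over 9283 protein-coding genes at the same limit the shares were 49.6%, 37.8%, 8.40% and 4.13%. By counts rather than TPM, coding isoforms took 70.7% in members and 68.1% in protein-coding genes. Retained-intron isoforms took 17.6% in members and 25.04% in protein-coding genes by counts, and processed transcripts 10.3% and 3.23%.

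Among members with such an isoform, 12 of 29 (41.4%) had a retained-intron share above 50% of their TPM, near the 41.8% of 5998 protein-coding genes. By counts it was 9 of 29 (31.0%), against 27.7% of those genes. Summed over these 29 members, retained-intron isoforms held 40.8% of the TPM and 22.1% of the counts. The median share was 43.1% in members and 45.1% in those genes. A share this near the background is no result about the chaperones, but the members differed widely among themselves. Dnajc11 had the highest share at a mean of 5 TPM or more, 86.7% of its TPM and 79.1% of its counts. It was followed by Hspa14 (77.1% of TPM), Dnajb5 (70.6%), Dnajb14 (67.8%), Dnajc2 (61.6%), Hsp90ab1 (61.3%), Hspa9 (60.5%) and Hspa4l (53.2%). The lowest shares of TPM were those of Dnajc19 (7.59%, from 0 and 4.21 counts), Dnajb4 (12.9%), Dnajc14 (19.4%) and Hspa5 (20.1%). The order by counts was another: Dnajb4 had 23.6% and Dnajc14 23.1%, while Hspa5 (2.94%), Dnaja2 (4.01%), Hspa4 (4.28%), Dnajb6 (6.25%) and Dnajc13 (9.23%) were lower. The gene levels behind these shares were 6.76 and 7.25 TPM for Dnajb5 and 4.50 and 5.73 TPM for Dnajb4. By counts the share of Hsp90ab1 was 25.9%, that of Hspa9 17.1% and that of Hspa4l 15.1%, while Dnajb5 (83.2%) and Dnajc2 (72.6%) stayed high.

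The exon and intron borders below show 1 place at which the isoforms of each pair differ. Each line gives the last 10 exon bases in lower case and the next 20 bases in capitals, either the kept intron, which opens with GT, or the next exon of the spliced coding isoform. The isoform TPM in replicates 1 and 2 follow the sequences.
Hspa8-208, intron 2 kept: acagtttttgGTAAGTCGCCAGCATCTTTG
Hspa8-202, spliced: acagtttttgATGCCAAACGTCTGATCGGG
Hsp90ab1-205, intron 2 kept: tgcttcagatGTGAGTATTCTGTTGTTGAA
Hsp90ab1-201, spliced: tgcttcagatGCCCTGGACAAGATTCGATA
Dnajc2-205, intron 12 kept: tgaaaaacagGTAACAGGATAAACCACTTC
Dnajc2-203, spliced: tgaaaaacagATAGAAGAAGTGAATGAGCA
Intron 2 of Hspa8 spans 290 bases (chromosome 9, 40802128 to 40802417, mm10). Hspa8-208 was at 23.0 and 17.7 TPM and the coding Hspa8-202 at 23.2 and 22.3 TPM. Intron 2 of Hsp90ab1 spans 145 bases (chromosome 17, 45571620 to 45571764), and Hsp90ab1-205 was at 12.0 and 12.7 TPM beside 20.95 and 20.83 TPM of Hsp90ab1-201. Intron 12 of Dnajc2 spans 1720 bases (chromosome 5, 21761726 to 21763445). Dnajc2-205 was at 6.46 and 3.71 TPM, above the coding Dnajc2-203 at 2.33 and 0.940 TPM in each library. The isoforms of a pair differ elsewhere too. Hspa8-208 has 3158 bases and Hspa8-202 has 2019, while Hsp90ab1-205 has 764 and Hsp90ab1-201 has 2520. The kept introns are read from annotated isoforms, and reads in introns that no annotated isoform covers have no isoform to fall on.

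**Figure D4:**
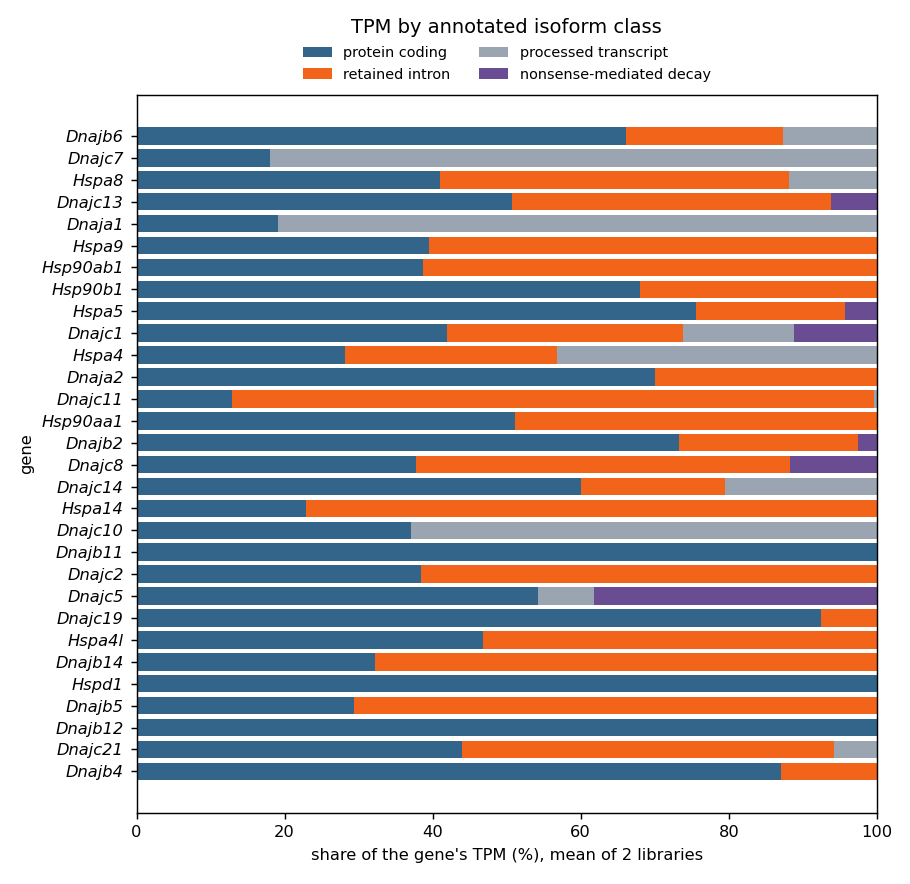
Share of TPM (percent, mean of 2 libraries) on protein-coding, retained-intron, processed and nonsense-mediated-decay isoforms for the 30 members with a mean of at least 5 TPM. Coding isoforms hold the largest share in 15 members, retained-intron isoforms in 11 and processed transcripts in 4.

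The plot of isoform shares also shows members with no annotated retained-intron isoform, 7 of the 30 at a mean of 5 TPM or more. Dnajb11, Hspd1 and Dnajb12 had all of their TPM on coding isoforms. Dnajc5 had 54.2% on coding isoforms and 38.2% on isoforms subject to nonsense-mediated decay. The others had most of it on processed transcripts, which held 82.0% of the TPM of Dnajc7, 81.0% of Dnaja1 and 63.0% of Dnajc10. In Dnajc7 the processed isoform Dnajc7-204 was at 19.7 and 19.1 TPM and the coding Dnajc7-201 at 15.6 and 8.80 TPM. In Dnaja1 the processed Dnaja1-204 was at 16.7 and 18.7 TPM. By counts, processed transcripts held 62.1% of Dnajc7 and 67.6% of Dnaja1 but 19.5% of Dnajc10. Dnajb6 was different, with 66.1% on coding isoforms, led by Dnajb6-203 at 27.04 and 29.99 TPM and Dnajb6-201 at 22.8 and 29.5 TPM. Single-exon members have no intron to keep. There were 7, none reached a mean of 5 TPM, and the highest was Hspa1b.

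The programs gave different levels for some members. The alignment-free values were higher in 39 of 49 members, with a median ratio of 1.28, as over 9283 protein-coding genes (1.28). They were over 2-fold higher in 5 members (10.2%), against 18.5% of those genes. For Dnajb6 the alignment-free levels were 281 and 331 TPM, a log2 difference of 1.27. Of these, 58.3 and 66.2 TPM were on the 123-base isoform Dnajb6-204, from 31.3 and 34.4 counts. Another 55.5 and 73.1 TPM were on the 218-base Dnajb6-211. The alignment-based levels were 0 TPM in both libraries for Dnajb6-204 and 0 and 2.17 TPM for Dnajb6-211. The log2 difference was 1.16 for Dnajc14, 0.98 for Dnaja2, 0.90 for Dnajc8, 0.82 for Dnajc13 and 0.65 for Dnajc5. Hspa8 went the other way (-0.46), so its order against Dnajc13, as against Hspa9, turns with the program. Dnajb6 led under both. Hspa12b, an endothelial HSP70 relative, was at 12.6 and 16.0 TPM by the alignment-free program and at 0.130 and 0.230 TPM by the other, from 7 and 4 counts.

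**Figure D5:**
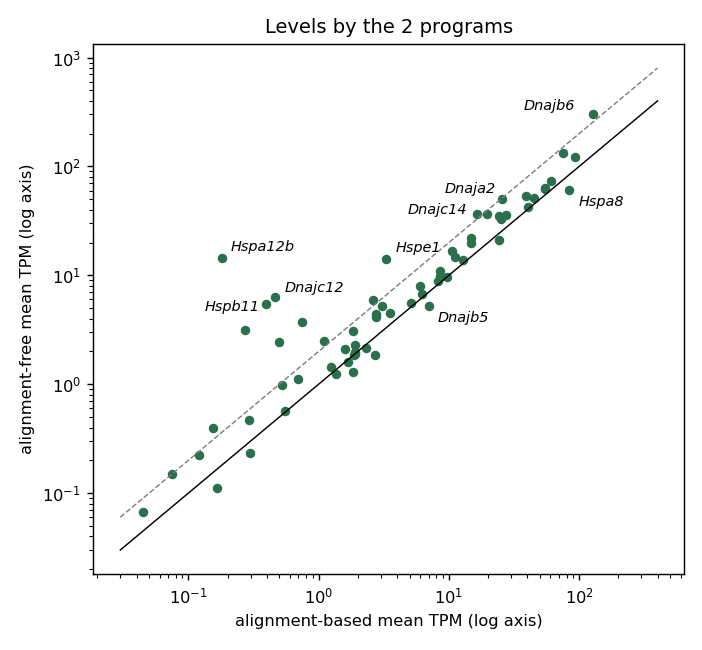
Mean TPM of each member by the alignment-free program (y) against the alignment-based program (x), both log axes, with lines at equality (solid) and 2-fold (dashed). Most members lie just above equality, Dnajb6 lies above 2-fold, and Hspa12b lies far above it at a low alignment-based level.

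Other genes of protein folding were taken from a list of 56 cochaperones, heat shock factors, chaperonin subunits and lectin chaperones, of which 55 matched. At least 1 TPM in both libraries was reached by 49 of them and 10 TPM by 26, and their median was 9.17 ± 0.856 TPM. The highest was Bag6, which guards membrane proteins released from the ribosome, at 71.3 and 74.0 TPM. Gak, named above, came next. Canx and Calr, the lectin chaperones of the endoplasmic reticulum, were at 32.2 and 43.6 TPM and at 34.3 and 30.6 TPM. Chordc1, an HSP90 cochaperone, was at 41.8 and 33.3 TPM. Cct8, a subunit of the cytosolic chaperonin, was at 34.7 and 39.4 TPM. Hsf1, the heat shock factor, was at 21.6 and 21.2 TPM, above each of the 5 heat-inducible genes listed.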

How the data were processed

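The data were 2 chromatin-fraction libraries of 1 group. Per the labels and file headers, the authors' expected counts per gene and transcript came from alignments to the mm10 transcriptome (GENCODE M21). Reads in introns thus counted only where an annotated isoform covers them. The deposited TPM values were scaled by the authors per effective length over all entries. The deposited estimated counts and TPM of the alignment-free transcript tables were summed per gene. The deposited posterior SD of each count was used as a score of how uncertain the assignment of reads is. The programs, their versions and the strand setting were not given in the sources used here.

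Expected counts were rounded and scaled by TMM (edgeR 4.0.16) or, as an alternative, by size factors (DESeq2 1.42.0, R 4.3.3), for ratios at 10 counts or more in each library. The ratio step was tested on simulated data. Ratio errors are counting SEs, and intervals and limits cover counting error only. Depth was 18445009 and 17686824 counts. The members and lists were chosen with earlier results of these data known. Named with both values were the 25 highest members, the highest and lowest detected of each class, the 6 largest ratios each way at 100 mean counts, the 8 highest and 4 lowest retained-intron shares and 6 largest program differences at 5 TPM, the 6 highest folding genes with Hsf1, and all members at 0. Alternatives were the program, the TPM denominator, the posterior mean TPM, each library alone, scaling, filters and the unit of isoform shares. No test was made, since there is 1 group. Promoter entries matched 58 members, and 14 pseudogene entries with matching symbols were left out.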

Additional observations from a re-analysis of the deposited data

Results flagged for a closer look

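The symbol rule also matched 14 entries without a protein-coding transcript, which no comparison used, and 10 of them had no count in either library. Hspe1-ps5, a pseudogene copy of the mitochondrial chaperonin gene Hspe1, had 18 and 26 expected counts (mean 22), above the 3 counts that a count of 0 allows. Hspe1-ps2 had 12 and 5 counts (mean 8.5). Hspe1 itself had 42 and 28 counts in the same libraries, so the counts of these copies were of its own order. How far reads of Hspe1 and of its copies were exchanged was not tested.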

How the results depend on the processing

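No paired analysis was possible because the study has 1 group. Under the 7 alternatives tried, the count of members at the minimum level was 38 to 56. It was 49 to 56 where the minimum stayed at 1 TPM, 51 at 0.5 TPM and 38 at 2 TPM. The alignment-free program gave medians of 4.87 TPM for all members, 7.09 for HSP70 and HSP110, 50.9 for HSP90, 11.4 for the chaperonin, 0.346 for small heat shock proteins, 27.9 for class A, 4.12 for class C and 12.2 for the related folding genes. TPM rescaled over protein-coding genes alone gave 9.97, 10.3, 167, 21.6, 0.770, 53.3 and 7.79 TPM for the same sets of members in that order, and 18.9 for class B. This rescaling leaves the order of genes within a library as it is. The posterior mean TPM gave 3.82 for HSP70 and HSP110, 0.3675 for small heat shock proteins, 13.7 for class A and 2.495 for class C. With 1 library at a time, the median of all members was 2.315 to 2.455 TPM, below the 2.675 of the means. That of HSP70 and HSP110 was 2.735 to 3.155, of small heat shock proteins 0.145 to 0.185, of class C 2.035 to 2.30 and of the folding genes 8.90 to 10.1. The 2 members over 2-fold became 1 with DESeq2's size factors, 0 by the alignment-free counts, 7 with a minimum of 1 count in either library and 1 with 100 counts in each. The summed retained-intron share of 40.8% became 22.1% by counts and was 39.8% to 41.8% in single libraries. The median log2 ratio of 0.05 was -0.05 by the alignment-free counts. Among the other values, those of named members, 245 moved by less than their error (the SD between libraries, or the counting interval for ratios) and 129 by more. Of 102 recomputed log2 ratios 10 changed sign, in 9 members, of which all but Hspe1 (-0.45, and 0.17 by the alignment-free counts) had a main ratio of 0.14 or less in size. The cause of these shifts was not tested. With 2 libraries of 1 condition, low members rest on few counts.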

Other observations

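Several low members sit inside or across other genes. The exons of 28 of the 72 members share bases with exons of another gene, in 25 cases on the opposite strand and in 9 on the same strand. The same share was not taken over all protein-coding genes, so these counts are not read as a trait of the members. Dnajb7, a single-exon J protein gene of the testis type with 29 and 32 counts, lies within Xpnpep3 on the opposite strand, which had 180 and 108 counts. Dnajb3, with 25 and 24 counts, lies within the Ugt1a genes on the opposite strand, of which Ugt1a7c had 176 and 170 counts. Dnajc30 shares 26.2% of its exonic bases with Bud23, a gene at 35.0 and 34.6 TPM beside 1.40 and 1.32 TPM for Dnajc30. Dnaja4 shares 44.1% with Wdr61, and Hspa1l shares 71.9% with the antisense gene Gm10501. Hspb2 shares 30.2% with Cryab, another small heat shock protein gene, and both had 0 counts. The small nucleolar RNAs Snord14c, Snord14d and Snord14e, which lie in Hspa8, had 0 counts in both libraries.

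Some members below 1 TPM in the alignment-based table stood above it by the alignment-free program. Besides Hspa12b, Dnajc12 was at 5.22 and 7.34 TPM, Dnajc15 at 3.85 and 3.62, and Dnajc28 at 3.06 and 3.24. These genes were picked after their values were seen.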
